A study of Arabidopsis thaliana with 6 samples.

Results

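The genes described here are the photosynthesis genes that Arabidopsis thaliana keeps on its chloroplast chromosome. They were taken as the probe sets of the ATH1 array that the platform annotation gives to exactly 1 gene of that chromosome whose symbol opens with psa, psb, pet, atp, ndh or rbcL. The rule reads names only and no measured value, though it was written with results of these data known. It gave 43 genes with 1 probe set each, out of 22746 probe sets on the array and 69 chloroplast-encoded genes with a probe set of their own. Of the 44 gene symbols of this kind in the gene table, only ndhB was missing, because its probe set is shared by the 2 copies of the gene. The 43 genes are 5 of photosystem I, 15 of photosystem II, 6 of the cytochrome b6f complex, 6 of the ATP synthase, 10 of the NDH complex and rbcL for the large subunit of Rubisco.

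The 6 arrays compare the lib mutant with the wild type, 3 biological replicates each, both in the Columbia-0 background and both from 8-day-old plants. The plants grew without any treatment on vertical plates of half-strength Murashige and Skoog medium that held 1% sucrose, with a day of 16 h light and 8 h dark. The series title connects lib with a partial shortage of isoleucine; the allele is not given in the labels. The sample labels name whole seedlings as the tissue, whereas the design text names roots.

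Photosynthetic electron transport runs from photosystem II through the cytochrome b6f complex to photosystem I, and the proton gradient it builds drives the ATP synthase. The NDH complex returns electrons from the stromal side to the plastoquinone pool in cyclic flow around photosystem I, and Rubisco fixes carbon dioxide with the ATP and reducing power so made. Each of these complexes is a mosaic of subunits encoded in the chloroplast and subunits encoded in the nucleus. Most chloroplast genes are transcribed in groups as long RNAs that are cut, spliced and trimmed at their ends, and the photosynthesis genes depend mainly on the plastid's own bacterial-type RNA polymerase.

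Values are MAS5 signals, deposited by the authors as log2, and a fold change is the log2 difference of lib minus wild type with its standard error (SE). A gene was called changed where limma, fitted to all probe sets, gave an adjusted p under 0.05. Signals of different probe sets are not comparable with each other, so only the same probe set is compared between genotypes. Replicate 3 of lib received the lowest array weight of the 6, 0.507, against 2.41 for lib replicate 1. The label kit per the labels' protocols is of the 3′ IVT type, which primes on poly(A); chloroplast mRNAs carry few such tails as a rule, and how far these signals follow the whole amount of each transcript was not tested. Of the 43 genes, 20 had a mean signal above the median of all probe sets, which was a signal of 176, and 16 had a mean signal under 50.

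Some chloroplast photosynthesis transcripts were lower in lib and none was called higher. The 8 that fell were petB and petA of the cytochrome b6f complex, psbH, psbA and psbK of photosystem II, psaJ and psaI of photosystem I, and atpE of the ATP synthase, at 46.7% to 69.5% of the wild type level. None of the 10 genes of the NDH complex passed the test, and neither did rbcL, where 10.3% of all probe sets were called lower. Over the 43 genes the median log2 fold change was -0.22, where the median of all probe sets was -0.043, and 34 of the 43 values (79.1%) were below 0, where 53.4% of all probe sets were.

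The 8 calls are 18.6% of the 43 genes. Among all probe sets 20.7% were called in either direction, 10.3% lower and 10.4% higher. The share of chloroplast photosynthesis genes that changed was therefore close to the share on the whole array, and the calls differ from that background in lying on the low side. At an unadjusted p under 0.05, limma gave 12 of the 43 genes (27.9%, against 32.9% of all probe sets), and 0 of the 12 were higher in lib. A fall of at least 2-fold was called for petB, psbH and psaJ, 6.98% of the 43 genes against 2.5% of all probe sets. The authors' deposited table gives an unadjusted p under 0.05 together with a ratio below 1 for 8 of the 43 genes. This is 18.6%, against 12% of all probe sets. With a ratio above 1 it gives such a p for 0 of the 43. Despite the equal count, these are not the same 8 genes as those called by limma. The deposited set lacks psaJ, called by limma with a fall of at least 2-fold, and holds psbC, which limma did not call.

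Calls were more frequent among brighter genes, as on the whole array. Of the 20 genes above the median signal 6 fell (30%, against 16.8% of all probe sets above it), and 17 of the 20 values were below 0 (85%, against 51.9%). Of the 23 dimmer genes 2 fell (8.7%, against 3.82% of all dimmer probe sets). The median half-width of the 95% interval of the log2 fold change was 0.33 in the 20 brighter genes and 1.06 in the 23 others. For 19 of the 35 genes that did not pass, the interval excluded a 2-fold fall, and for 16 it did not; of those 16 only psaB was above the median signal.

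**Figure D1:**
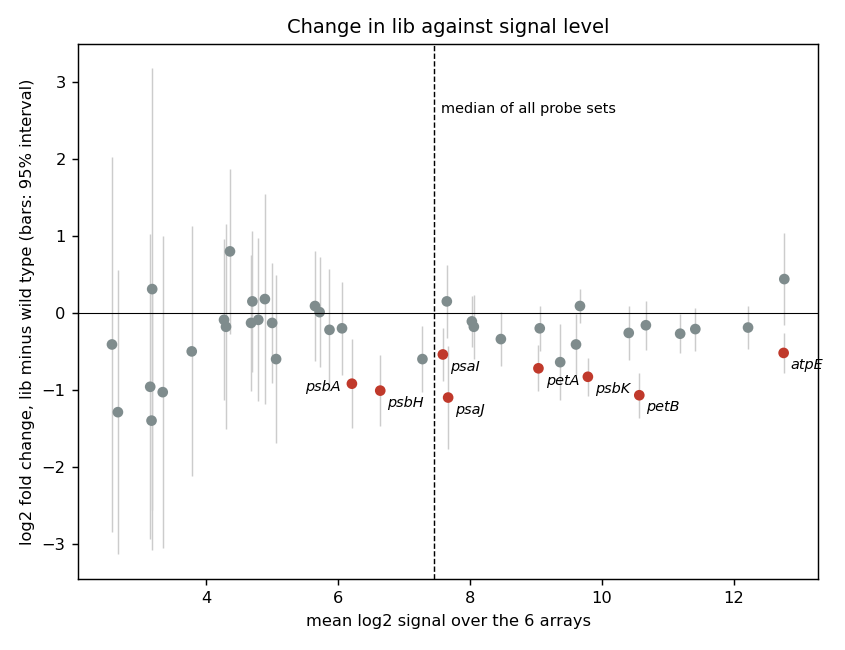
The log2 fold change of each of the 43 genes, lib minus wild type, is plotted against its mean log2 signal over the 6 arrays, with the 95% interval as a bar and the 8 genes with an adjusted p under 0.05 in red and named. The intervals are wide to the left of the dashed line, the median of all probe sets at a log2 signal of 7.46, and 6 of the 8 named genes lie to its right.

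With fewer arrays the count of 8 was 5 without lib replicate 1, where 6% of all probe sets were lower, 5 without lib replicate 2 (8.03% of all) and 6 without lib replicate 3 (8.2%). It was 5 without wild type replicate 1 (6.67%), 6 without wild type replicate 2 (7.48%) and 8 without wild type replicate 3 (7.53%). In these fits 11.6% to 18.6% of the 43 genes were lower, where the fit with all arrays gave 18.6% of them and 10.3% of all probe sets. Both shares were smaller in each of these fits except that without wild type replicate 3. There the share of the 43 genes stayed at 18.6%. The median of the 43 genes was -0.34 without lib replicate 1 and without wild type replicate 3, and -0.15 without lib replicate 3. The genes petB, psbK, petA and psbH were called in every one of the 13 alternative fits, apart from psbH in the fit of brighter probe sets, which left it out. The genes psbA, psaI, psaJ and atpE lost their calls in some of them, as given with each gene.

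Shoot and root markers were compared between the genotypes, because the labels leave the tissue unsettled. A difference between genotypes does not decide which tissue was sampled. Of 4 shoot markers, all encoded in the nucleus, LHCB4.1 and RCA fell, both with a log2 fold change of -0.62, and PRK (-0.70) and SBPASE (-0.28) did not pass. Their summed signal was 1092 to 1492 on the lib arrays and 1658 to 2636 on the wild type arrays, without overlap, and none of the 4 was at the floor of the scale on any array. Most of this sum is LHCB4.1 and RCA, and the arrays of PRK and of SBPASE overlapped between the genotypes. On every array PRK (27.6 to 79.7) and SBPASE (25.3 to 66.4) lay under 176, the median signal of all probe sets. Of 3 measured root markers PYK10 fell (-0.47), while EXPA7 (0.20) and EXPA18 (0.00) did not pass. Their summed signal, nearly all of it PYK10, ran from 13542 to 15628 on the lib arrays and from 17811 to 21898 on those of the wild type. The part of shoot tissue in the results that follow was not tested, and in bulk RNA fewer green cells and less chloroplast RNA per cell cannot be told apart.

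**Figure D2:**
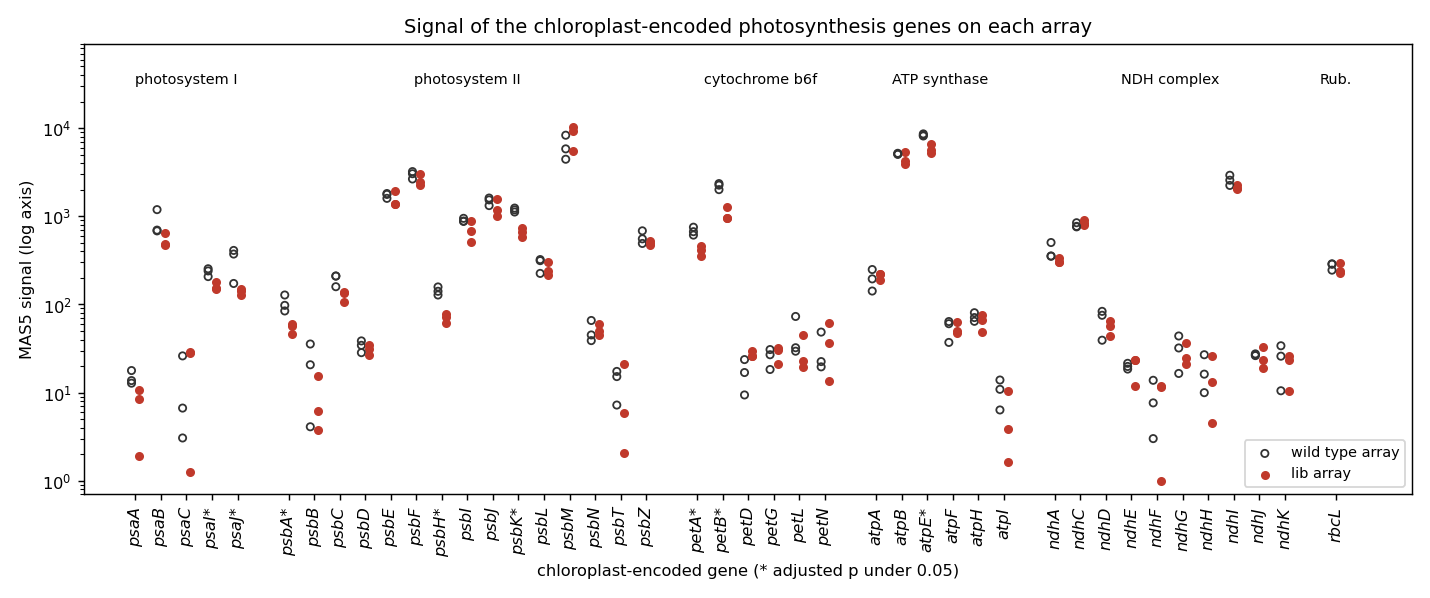
MAS5 signal on a log axis for each of the 43 genes, grouped by complex (Rub. is Rubisco), with the 3 wild type arrays as open circles and the 3 lib arrays as red points. The 8 genes with an asterisk passed the test, and in each of them the 3 lib points lie below the 3 wild type circles. The same holds for 27.9% of the 43 genes and for 20.2% of all probe sets.

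The cytochrome b6f complex passes electrons between the photosystems. The chloroplast encodes its cytochrome f (petA), cytochrome b6 (petB), subunit IV (petD) and small subunits (petG, petL, petN). The signal of petB was 2349, 2255 and 2006 on the wild type arrays and 1275, 956 and 949 on the lib arrays. Each lib array lay well below each wild type array, and petB fell by 1.07 log2 units (SE 0.13, adjusted p = 0.000783 by limma), to 47.7% of the wild type level. Of the 43 genes it had the smallest adjusted p.

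Cytochrome f, the electron donor to plastocyanin, showed the same direction. The signal of petA was 752, 669 and 612 in the wild type and 420, 465 and 351 in lib. The groups did not overlap, and petA fell by 0.72 (SE 0.13, adjusted p = 0.00554 by limma), to 60.7%. Both genes were the only ones of the complex above the median signal.

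The 4 remaining genes of the complex were dim and none passed. The signal of petD was 23.7, 16.9 and 9.41 in the wild type and 25.7, 29.6 and 26.1 in lib. It was the only one of the 43 genes whose lib arrays all lay above the wild type arrays, as they did for 18% of all probe sets, and its log2 fold change of 0.80 had a 95% interval of -0.27 to 1.87. Of the small subunits, petL stood at -0.60, petG at 0.15 and petN at 0.18, each with overlapping arrays. For the complex as a whole 2 of 6 genes fell, where 10.3% of all probe sets did. Its median of -0.23, between the values of the dim petL and petG, moved with single arrays but stayed below 0 in every fit. It was -0.08 without wild type replicate 1, -0.39 without lib replicate 2 and -0.40 without wild type replicate 2. Without wild type replicate 3 it was -0.42, and quantile normalization gave -0.09. For petA and petB alone, the genes above the median signal, the median was -0.89.

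Photosystem I takes electrons from plastocyanin and reduces ferredoxin. Its chloroplast genes encode the paired core proteins that carry the reaction centre (psaA, psaB), the iron-sulfur protein of the stromal side (psaC) and the small membrane subunits psaI and psaJ. The signal of psaJ was 373, 410 and 173 in the wild type and 142, 127 and 149 in lib. Wild type replicate 3 was far below the other wild type arrays and only slightly above the highest lib array. With a fall of 1.10 (SE 0.30, adjusted p = 0.0288 by limma) psaJ had the largest change among the 8 called genes and also the widest error. Its call was lost when any one array except wild type replicate 3 was left out, at adjusted p-values between 0.0664 (without lib replicate 3) and 0.117 (without wild type replicate 1), and without the intensity trend (adjusted p = 0.115).

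A second small subunit, psaI, had signals of 254, 207 and 240 in the wild type and 178, 155 and 149 in lib. These groups did not overlap either, and psaI fell by 0.54 (SE 0.15, adjusted p = 0.0363 by limma), to 68.8%. The call was lost when any one array except wild type replicate 2 was left out (adjusted p from 0.0652 without lib replicate 1 to 0.119 without wild type replicate 1). It was also lost without the intensity trend (adjusted p = 0.0662) and in the fit blocked by replicate number (adjusted p = 0.0694).

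For the core protein psaB the signals were 1190, 683 and 697 in the wild type and 650, 469 and 489 in lib. All lib arrays lay below all wild type arrays, yet psaB did not pass (log2 fold change -0.64, SE 0.22, adjusted p = 0.0667). Its value was -0.38 (adjusted p = 0.161) without wild type replicate 1. It passed when dimmer probe sets than the median were left out of the fit (adjusted p = 0.0280) and in the fit blocked by replicate number (adjusted p = 0.0153). Its partner psaA was close to the floor of the scale, with signals of 17.8, 13.7 and 12.8 in the wild type and 8.38, 10.7 and 1.91 in lib. Its value of -1.40, the lowest of the 43 genes, had a 95% interval of -3.08 to 0.29 and did not pass. The signal of psaC was 26.1, 6.68 and 3.06 in the wild type and 28.7, 28.0 and 1.27 in lib, in overlapping groups. Its value of 0.31 had an interval of -2.56 to 3.18 and was -0.44 without lib replicate 1. Of the 5 genes 2 fell (40%, against 10.3% of all probe sets), and the median was -0.64. In 4 of the 5 the lib arrays lay below the wild type arrays, as they did in 12 of all 43 genes (27.9%, against 20.2% of all probe sets).

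Photosystem II splits water. Its chloroplast genes encode the reaction centre proteins D1 (psbA) and D2 (psbD), the inner antenna proteins CP47 (psbB) and CP43 (psbC), cytochrome b559 (psbE, psbF) and a series of small membrane proteins. The signal of psbK, one of these small proteins, was 1182, 1239 and 1118 in the wild type and 743, 664 and 584 in lib. The arrays of each genotype lay close together and the groups were far apart. The fall of 0.83 (SE 0.11, adjusted p = 0.00109 by limma) brought psbK to 56.1% of the wild type level.

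The signal of psbH, a small phosphoprotein of the complex, was 158, 128 and 141 in the wild type and 71.6, 78.6 and 62.2 in lib. Its groups were likewise apart, and psbH fell by 1.01 (SE 0.21, adjusted p = 0.00868 by limma), to 49.8%. D1 is the subunit with the fastest turnover in the light. The signal of psbA was 128, 97.7 and 84.4 in the wild type and 56.5, 46.2 and 59.5 in lib. No array overlapped, and psbA fell by 0.92 (SE 0.26, adjusted p = 0.0334 by limma), to 52.8%. The call of psbA needed every array except wild type replicate 3, since it was lost without any one of the others, at adjusted p-values from 0.0524 (without lib replicate 3) to 0.120 (without wild type replicate 1), and in the fit blocked by replicate number (adjusted p = 0.0688).

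The inner antenna protein psbC stood at the threshold. Its signals were 210, 210 and 159 in the wild type and 136, 137 and 108 in lib, without overlap, and its log2 fold change was -0.60 (SE 0.19, adjusted p = 0.0504). It passed with array weights (adjusted p = 0.0335), with log2(signal + 16) (adjusted p = 0.0494) and once wild type replicate 3 was left out (adjusted p = 0.0362), and in the 9 other alternative fits that tested it psbC did not pass, with adjusted p-values up to 0.153. For psbI the value was -0.41 (adjusted p = 0.142). It was -0.60 and passed without lib replicate 1 (adjusted p = 0.0354), and it was -0.20 without lib replicate 3 (adjusted p = 0.334) and -0.21 with array weights (adjusted p = 0.395).

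The cytochrome b559 genes and their neighbours had small fold changes. The signal of psbE was 1770, 1812 and 1597 in the wild type and 1372, 1364 and 1953 in lib, where replicate 3 was above every wild type array. Its log2 fold change was -0.16 (95% interval -0.48 to 0.16), which single arrays of lib moved both ways. Without lib replicate 3 it was -0.33 and passed (adjusted p = 0.0446), and without lib replicate 1 or 2 it was -0.08 or -0.07 (adjusted p = 0.802 for each). The values of psbF, psbL and psbJ were -0.21, -0.18 and -0.26, and their intervals excluded a 2-fold fall. That of psbZ, a small subunit at the edge of the core, was -0.20.

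At the upper end of the complex was psbM, with signals of 5817, 8309 and 4437 in the wild type and 10325, 9275 and 5568 in lib. The groups overlapped, and its value of 0.44 (SE 0.27, adjusted p = 0.295) did not pass. The remaining psbB (-1.03), psbT (-0.96), psbD (-0.13) and psbN (0.09) had dim and overlapping signals and did not pass either. For psbB the signals were 20.7, 4.1 and 35.6 in the wild type and 6.14, 3.73 and 15.5 in lib, and the 95% interval was -3.06 to 0.99. In total 3 of the 15 genes fell (20%, against 10.3% of all probe sets), and the median of the complex was -0.26 (-0.41 without lib replicate 2).

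The ATP synthase has a membrane part, for which the chloroplast encodes atpF, atpH and atpI, and a catalytic head, for which it encodes the alpha, beta and epsilon subunits (atpA, atpB, atpE). The signal of atpE was 8601, 8289 and 8146 in the wild type and 5251, 5636 and 6591 in lib. The wild type arrays lay within a narrow range and all lib arrays lay below it. The gene fell by 0.52 (SE 0.11, adjusted p = 0.0106 by limma), to 69.5%. It lost the call without lib replicate 1 (-0.45, adjusted p = 0.0625) and without the intensity trend (adjusted p = 0.0577).

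The beta subunit did not follow with a call. The signal of atpB was 5039, 5093 and 5180 in the wild type and 5418, 3955 and 4210 in lib, where replicate 1 was above every wild type array, and its log2 fold change was -0.19 (95% interval -0.47 to 0.10). The signal of atpA was 142, 249 and 195 in the wild type and 221, 224 and 191 in lib, interleaved, and its value of 0.15 was -0.06 without wild type replicate 1. The membrane subunits atpF and atpH stood at 0.01 and -0.20. The third of them, atpI, was near the floor, with signals of 6.36, 10.9 and 13.9 in the wild type and 1.64, 10.5 and 3.82 in lib, and its value of -1.29 had an interval of -3.14 to 0.56. Thus 1 of the 6 genes fell (16.7%, against 10.3% of all probe sets). The median of -0.19 was -0.33 without lib replicate 1, -0.08 without lib replicate 3 and -0.07 with array weights.

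None of the 10 NDH genes was called by limma, where 20.7% of all probe sets were called in either direction and 10.3% were called lower. Only 1 of the 10, ndhI, had an unadjusted p under 0.05, as 32.9% of all probe sets did. For the 7 dim ones a call was rare on the array as a whole, at 3.82% lower among all probe sets at or below the median signal. The signal of ndhI, which encodes an iron-sulfur subunit, was 2919, 2238 and 2566 in the wild type and 2261, 2027 and 2097 in lib. The groups overlapped slightly and the log2 fold change was -0.27 (SE 0.11, adjusted p = 0.130). The signal of the membrane subunit gene ndhA was 355, 352 and 504 in the wild type and 335, 306 and 302 in lib, without overlap, at -0.34 (SE 0.16, adjusted p = 0.163). For ndhC the signals were 845, 759 and 769 in the wild type and 834, 801 and 900 in lib, and its 95% interval of -0.12 to 0.31 was the narrowest of the 43.

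The other 7 NDH genes lay below the median signal, between -0.50 for ndhH and -0.09 for ndhG and ndhE. All of their groups overlapped. The signal of ndhH was 16.2, 26.9 and 9.99 in the wild type and 13.3, 25.8 and 4.53 in lib. One of them, ndhF, was listed at a log2 signal of 0, the floor, on lib replicate 3, and had signals of 11.8 and 11.5 on the other lib arrays and of 7.65, 13.8 and 3.01 in the wild type. Of the 10 values 9 were below 0, where 53.4% of all probe sets were. The median of the 10 genes, -0.20, moved with the fit. It was -0.03 without wild type replicate 2, -0.02 with array weights and -0.34 without lib replicate 1. Only without lib replicate 3 was this median above 0, at 0.07.

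Rubisco is the enzyme of carbon fixation, and rbcL encodes its catalytic large subunit. The signal was 286, 245 and 289 in the wild type and 242, 293 and 225 in lib. The arrays of the genotypes were interleaved, and the log2 fold change was -0.11 (SE 0.15, adjusted p = 0.651), with a 95% interval of -0.45 to 0.22 that excludes a 2-fold fall.

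**Figure D3:**
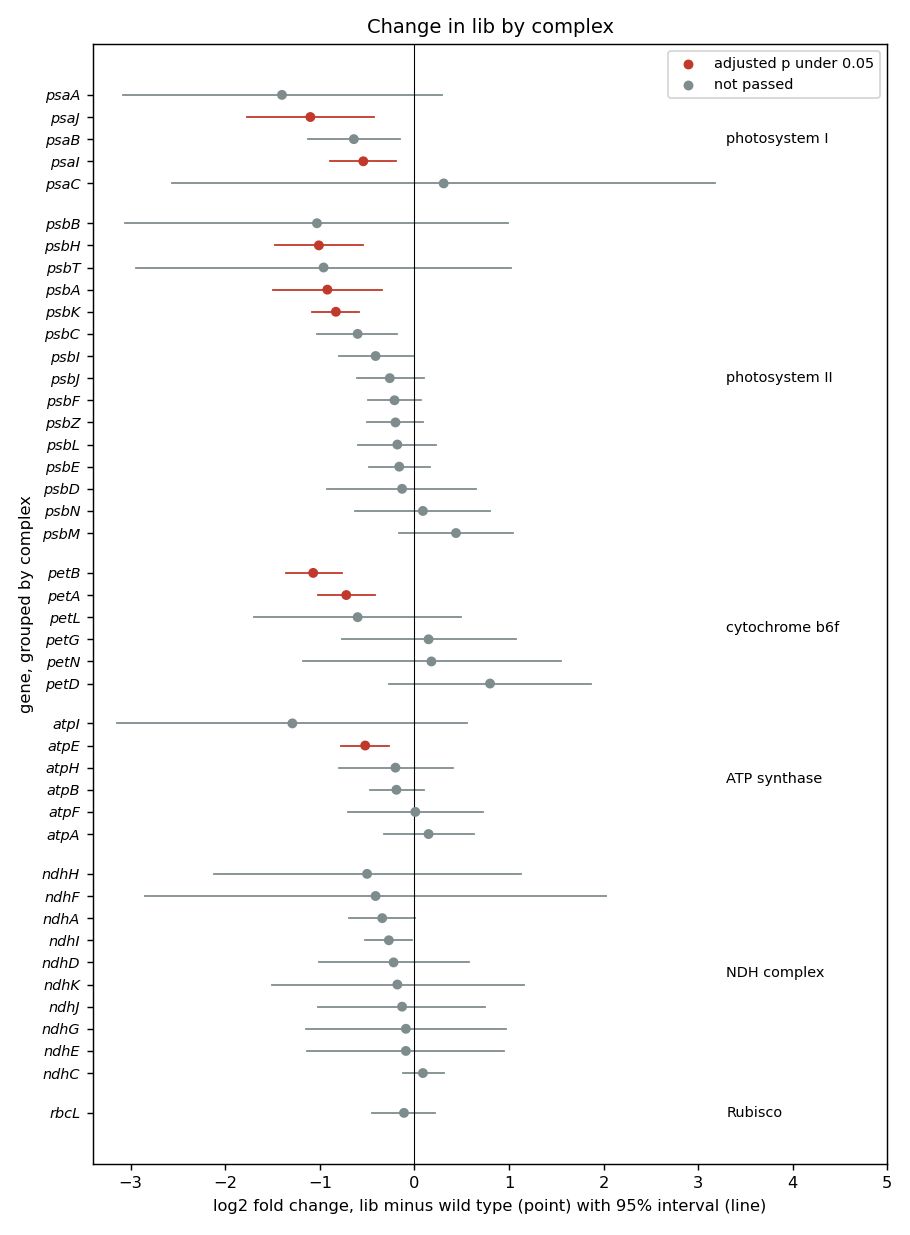
The log2 fold change, lib minus wild type, of each gene is shown with its 95% interval, grouped by complex, with genes of an adjusted p under 0.05 in red. The 8 red genes lie in 4 of the 6 groups, all to the left of 0, and none in the NDH complex (10 genes) or Rubisco (1 gene). Of all probe sets 10.3% were called lower, and 3.82% of those at or below the median signal, where 7 of the 10 NDH genes lie.

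Some genes that share a primary transcript had unlike fold changes, within wide errors for the dim ones. In the psbB operon, known to hold psbB, psbT, psbH, petB and petD, the values ran from -1.07 for petB to 0.80 for petD, with psbH next to petB at -1.01. In the atpB and atpE pair they were -0.19 and -0.52, and in the psbK and psbI pair -0.83 and -0.41. The 7 measured genes of the long operon from ndhH to ndhD, psaC among them, ran from -0.50 to 0.31 with no call, and the 4 genes of the psbE operon only from -0.26 to -0.16.

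The difference between neighbours was tested for 6 pairs, chosen after their values were seen, with a two-sided exact permutation test over the arrays. With 3 arrays against 3 the smallest p this test can give is 0.1, so none of the 6 could pass. The change of petB was 1.87 lower on the log2 scale than that of petD, a difference of -1.87, and the arrays did not overlap in this measure (exact p = 0.1, 0.15 after adjustment over the 6 pairs). The difference was -1.25 between psaJ and petG, -0.43 between psbK and psbI, and -0.34 between atpE and atpB, each with an exact p of 0.1 (adjusted 0.15). Between petB and psbH it was -0.06 (exact p = 1), and between psbC and psbD -0.47 (exact p = 0.3, adjusted 0.36).

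Along the chloroplast chromosome, called genes stood next to each other in some places. Next to psaJ lies rpl33, a ribosomal protein gene, which fell by 1.11 (SE 0.14, adjusted p = 0.000832), and then rps18 at -0.61 (adjusted p = 0.0519). In the row psaI, ycf4, cemA and petA, both end genes fell (0.54 and 0.72), and the dimmer genes between them stood at -0.75 for ycf4 and -0.44 for cemA without passing. These 2 neighbourhoods were picked after the values were seen.

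**Figure D4:**
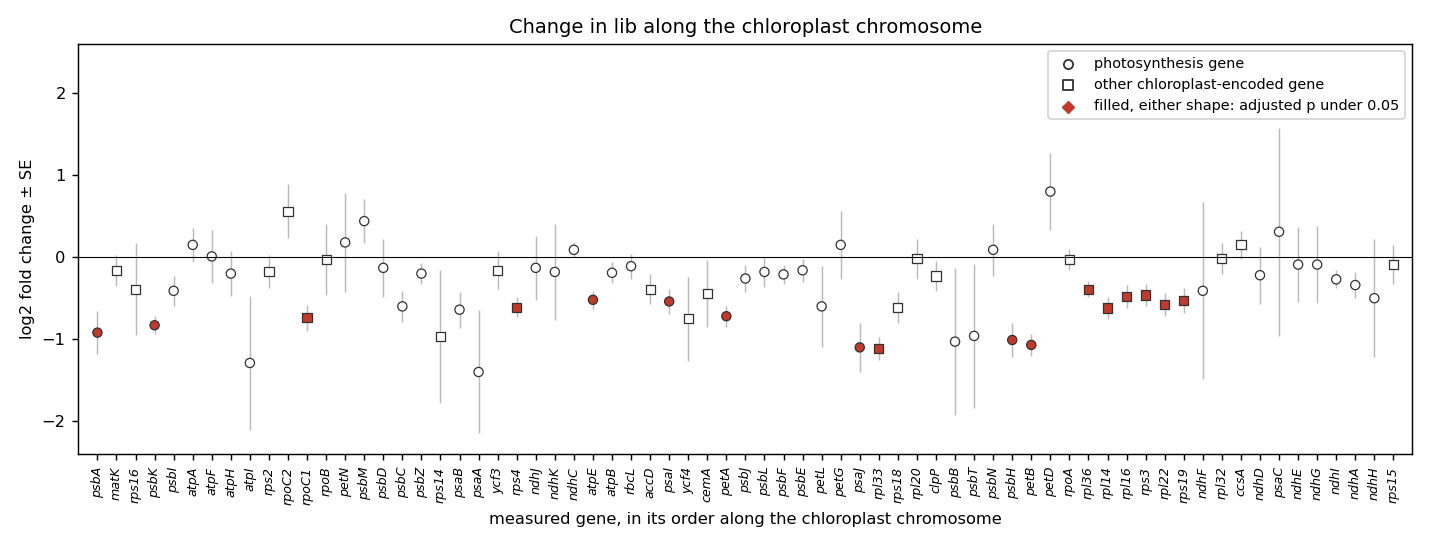
The log2 fold change, lib minus wild type, with its SE is shown for the 69 measured chloroplast genes in their order along the chromosome, with photosynthesis genes as circles, other genes as squares, and filled symbols for an adjusted p under 0.05. Neighbouring filled symbols are seen at psaJ and rpl33, at psbH and petB, and at the ribosomal protein genes from rpl36 to rps19.

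The other 26 chloroplast-encoded genes with a probe set, mostly for ribosomal proteins and the plastid RNA polymerase, gave 9 falls (34.6%, against 10.3% of all probe sets) and no rise, with a median of -0.39. The 9 were 5 without lib replicate 1, 3 without wild type replicate 1, 4 without wild type replicate 2 and 2 without the intensity trend, and the median was -0.14 without lib replicate 3. By p the leading genes were rpl33 (above), rps4, which fell by 0.61, and rpl14, which fell by 0.62. The photosynthesis genes, at 18.6% and a median of -0.22, were on the same side; whether these groups differ was not tested. Of the 26 genes 15 were above the median signal, where 16.8% of all probe sets were lower, and all 9 falls were among these 15.

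Nuclear photosynthesis genes were sought only among the 13513 probe sets with 1 gene identifier and 1 symbol in the annotation. The list is therefore partial and holds, for example, no LHCA or RBCS gene. Of the 13 genes found, 4 fell (30.8%, against 10.3% of all probe sets) and none rose, with a median of -0.62. All 4 were among the 10 genes above the median signal, where 16.8% of all probe sets were lower. The count was 1 without lib replicate 1, wild type replicate 1 or wild type replicate 2, and 1 without the intensity trend. It was 2 without lib replicate 2 or lib replicate 3, and the median was -0.40 without wild type replicate 1. The gene of smallest p was ATPC1, which encodes the gamma subunit of the chloroplast ATP synthase and so works in one enzyme with atpE. Its signal was 1306, 1643 and 1375 in the wild type and 630, 635 and 615 in lib, with the groups far apart, and it fell by 1.20 (SE 0.11, adjusted p = 0.000200 by limma). Next came PSB27, a photosystem II assembly factor (-0.94, adjusted p = 0.0204), and LHCB4.1, a minor antenna protein of photosystem II (-0.62, adjusted p = 0.0376). LHCB4.1, RCA, PRK and SBPASE are in this list and among the shoot markers alike. None of the 52 names listed for nuclear genes of plastid transcription and RNA processing was found among the probe sets with 1 symbol. Those genes were not examined here.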

How the data were processed

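Labelled material was made from total RNA with a kit of the 3′ IVT type. It was hybridised to 6 Affymetrix ATH1 arrays, 3 of lib and 3 of wild type. The authors deposited log2 signals; the submitters' processing notes name MAS5, with no version; on each array their linear 2% trimmed mean is 496, so the arrays had been scaled before deposit. These values were used as they stand. A second deposited table holds for each probe set a p-value and a fold of lib over wild type, as a linear ratio; for all 43 genes that p-value equals an unadjusted unequal-variance comparison of the deposited log2 values within 1e-06, and that ratio equals the ratio of mean signals within a relative 1e-06.

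Probe sets were matched by gene identifier to the TAIR10.1 gene table, in which chloroplast loci carry RefSeq locus tags, so the chloroplast chromosome stood in for the ATCG prefix. Only the 13513 probe sets with 1 gene identifier and 1 symbol in the annotation were used for this match. Mitochondrial genes could not be matched and were not analysed here. Limma 3.58.1 in R 4.3.3 (lmFit, eBayes with intensity trend, 2-sided) was fitted to all 22746 probe sets, with Benjamini-Hochberg adjustment and tested on simulated data; an adjusted p under 0.05 was called. The 95% intervals come from the same fit. The number of arrays limits the precision, and p-values measure the spread among these arrays.

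The 43 genes, the lists and the tests were chosen with earlier results of these data known. Every one of the 43 could be named; called genes and the extremes of each complex are given by array, and of each comparison list the 3 genes of smallest p. Alternatives were eBayes without the trend, quantile normalization, centring, log2(signal + 16), only probe sets above the median signal, array weights, a replicate block by number, a threshold of 0.01 on the adjusted p, no overlap of arrays, the deposited p-values, and each array left out in turn.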

Additional observations from a re-analysis of the deposited data

How the results depend on the processing

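The count of 8 genes lower was 4 at an adjusted p under 0.01, 5 without the intensity trend, and 5 to 8 when single arrays were left out. With Benjamini-Hochberg adjustment of the authors' deposited p-values, 0 of the 43 genes passed, against 0.29% of all probe sets. The count of 0 higher became 1, petD, when non-overlap of the arrays was the rule, and stayed at 0 in the 13 alternative fits. Over all probe sets the counts of 2344 lower and 2364 higher were 1184 and 1199 without the intensity trend and 1074 and 1183 at an adjusted p under 0.01; leaving out single arrays gave 1365 to 1866 lower and 1340 to 1950 higher. The median of the 43 genes ran from -0.34 to -0.15 over the alternatives. In all, 12 of the 43 genes were called in at least 1 fit. With the replicate number as a block 7 genes were lower: psaI and psbA lost their calls and psaB gained one. Deviations of same-numbered arrays correlated at 0.0474, -0.202 and -0.225, so the number was not taken as a pairing. None of the 8 called genes changed sign in any fit, whereas 13 of the 35 others did in at least 1, only atpA of them above the median signal, and the median of the NDH genes turned from -0.20 to 0.07 without lib replicate 3. The causes of these shifts were not tested. Dim signals limit the precision for 23 of the 43 genes.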
